A study of Mus musculus with 39 samples.

Results

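Subcutaneous fat of mice on a high-fat diet with 20 µg of KAL-1 was compared here with that of lean control mice, week by week. The members are the 6 HF20 arrays and the 6 LFC arrays taken at 3-week intervals from Week 3 to Week 18, which were taken by their labels and make 12 of the 39 arrays of the series. All mice were C57BL/6J, weaned at 3 to 4 weeks of age and given food and water freely. LFC mice ate a normal diet with 10% of its calories from fat. HF20 mice ate a diet with 60% of its calories from fat and added sucrose, and received KAL-1, an aqueous botanical formulation, at 20 µg. HFC mice, to which HF20 and LFC are compared where it bears on a result, ate that high-fat diet alone. HF5 and HF75 mice ate that high-fat diet and received KAL-1 at 5 and 75 µg, and their arrays entered the same fit. Every 3 weeks 5 animals of a group were sacrificed, and whether single mice or pools were hybridised is not given in the labels. Each diet had 1 array in each week, so a difference in a single week had no replicate check. Every error given rests on a spread shared by all 30 arrays of the 5 diets, after week and diet were fitted. The series text speaks of biological replicates for each diet, and p values here measure only the spread between these arrays.

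White fat stores surplus energy as triglyceride. Its cells take up fatty acids from the blood or build them from glucose through a chain of enzymes that runs from citrate export and malic enzyme to fatty acid synthase and the desaturases, and sugar-rich, low-fat food is known to favour this synthesis while dietary fat is known to lower it. Expanding fat is known for higher leptin and Mest, for incoming macrophages and for remodelling of the collagen matrix.

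Levels are log2 intensities with the 75th percentile of the array set to 0, so a level of 1 is 2-fold above that percentile, and a difference is always HF20 minus LFC on the log2 scale. Spots well above background made up 52.1% to 70.4% of an LFC array and 56.6% to 87.8% of an HF20 array, and the 75th percentile lay at an intensity of 108 to 1045. A few arrays stood apart. The HF20 array of Week 15 had 4936 spots with an outlier flag against at most 84 on the other 11, so for many genes it gave no value. At Week 12 the deposited ratios named HF20 matched the array labelled HF5 (r = 0.999 over 40628 probes) rather than the array labelled HF20 (r = 0.665), so the HF20 against LFC values were repeated with these 2 arrays exchanged. The LFC array of Week 12 was low in immediate early genes, as described with those genes. HF20 and LFC had shared a scan day in every week except Week 6. HFC had shared that of LFC in every week except Week 12, and that of HF20 in every week except Week 6 and Week 12.

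No gene passed the test. HF20 against LFC over the 6 weeks gave 0 of 21087 genes (0%) at an adjusted p under 0.05 in limma, and the smallest adjusted p was 0.9998. At an unadjusted p under 0.05 limma gave 601 genes, of which 355 (1.68% of those tested) were higher in HF20 and 246 (1.17%) lower. The unmoderated paired test gave 844 and likewise 0 after adjustment. Without the week as a block the count was 264. Higher genes made up 59.1% of the 601, against 76.4% after correcting the background with normexp, which moved the median of all genes to 0.22, and 37.4% under quantile normalization. Genes named below are therefore described by their values, and none is a call.

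The weekly differences had little in common. Over all genes tested, the correlation between the HF20 minus LFC differences of any pair of weeks ran from -0.501 to 0.286 over 15 pairs, as a description across genes, which are not independent. In Week 9, 11.3% of genes were at least 2-fold higher and 7.33% at least 2-fold lower in HF20, and in Week 18 the shares were 19.0% and 26.7%. Of the 21087 genes, 316 (1.5%) were higher in HF20 in all 6 weeks and 246 (1.17%) were lower in all 6.

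Among 26 gene lists, fatty acid synthesis and desaturation had the lowest median. The immediate early genes had the highest as labelled, but not without Week 12 or without its LFC array, where the collagens and matrix were higher (0.73 and 0.58). The median difference of the fatty acid synthesis members was -1.13, beside 0.01 over all genes tested. It was -1.27 with Week 12 exchanged, -1.15 without Week 12 and -1.24 with Week 12 exchanged and the HF20 array of Week 15 left out. Of its 20 members 19 had a lower mean in HF20, as did 10408 of all 21087 genes, and members of a list are not independent. In limma 0 of the 20 passed after adjustment, and 8 were lower and 0 higher at an unadjusted p under 0.05, where 1.17% of all genes were lower.

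**Figure D1:**
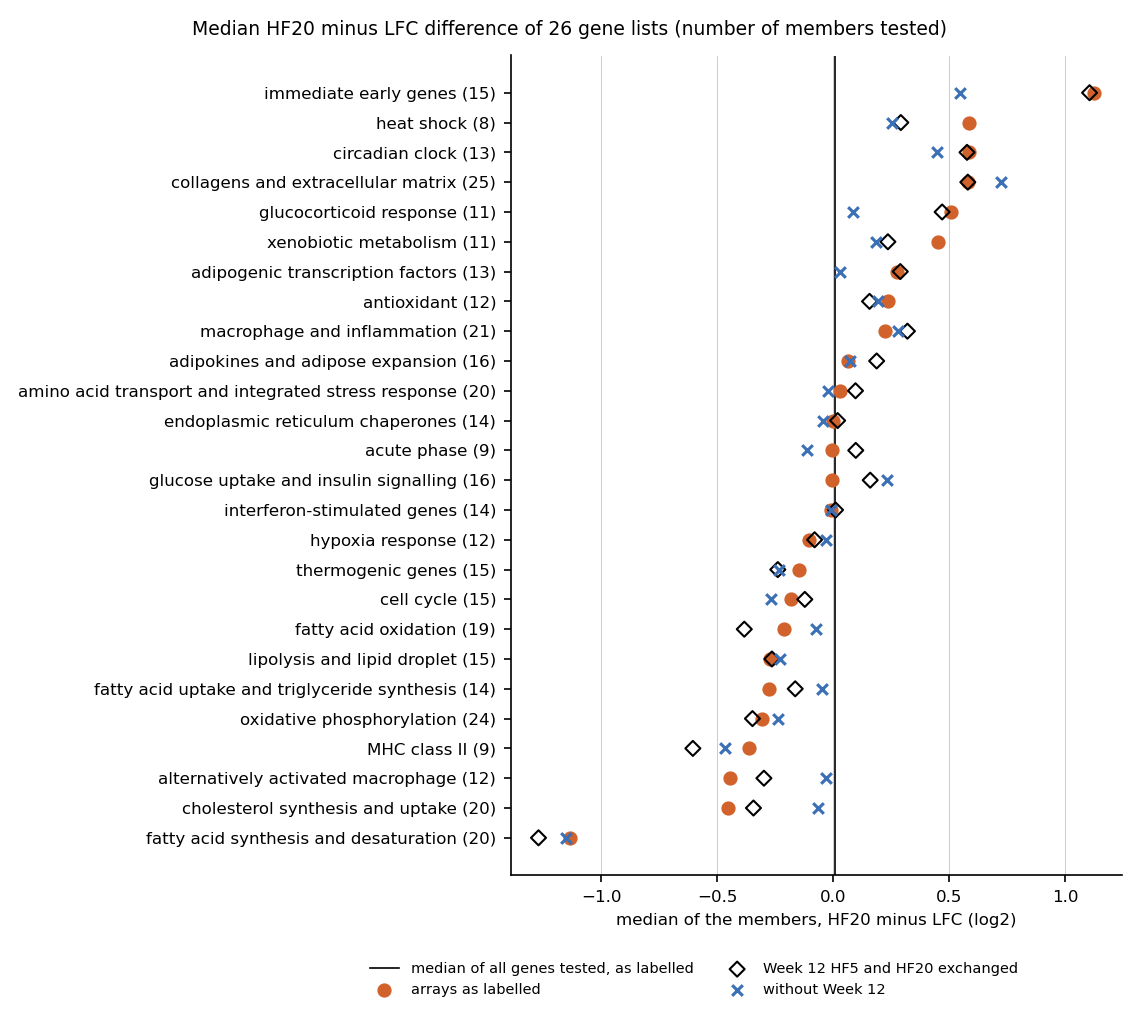
Median HF20 minus LFC difference (log2, x axis) of the tested members of 26 gene lists (y axis, number of members in brackets), with the arrays as labelled (filled circles), with the HF5 and HF20 arrays of Week 12 exchanged (open diamonds) and without Week 12 (crosses). The vertical line is the median of all 21087 genes (0.01), and as labelled fatty acid synthesis at -1.13 and the immediate early genes at 1.12 lie farthest from it, while without Week 12 the latter lie at 0.55, below the collagens at 0.73.

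By week, the mean level of the 20 fatty acid synthesis members on the LFC arrays was 0.33, 0.78, 2.49, 4.24, 0.57 and 2.27 from Week 3 to Week 18. On the HF20 arrays it was 0.46, 0.06, 0.64, 1.98, 0.45 and 0.86. The HF20 mean of Week 15 covered 17 of the 20 members, since the others had outlier spots. Over members measured on both arrays, the weekly median difference was 0.05, -0.74, -2.19, -2.35, -0.47 and -1.72. The diets were thus closest at Week 3 and farthest apart at Week 9, Week 12 and Week 18, and within LFC the list moved over a wide range. HFC against LFC gave a list median of -0.30 with 4 members lower at an unadjusted p under 0.05 in limma (2.79% of all genes), and HF20 against HFC gave -0.48. The mean of the 7 adipocyte markers ran from 2.74 to 5.48 on LFC and from 2.66 to 5.57 on HF20 arrays, with a median difference of -0.24, and its part in these values was not tested.

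**Figure D2:**
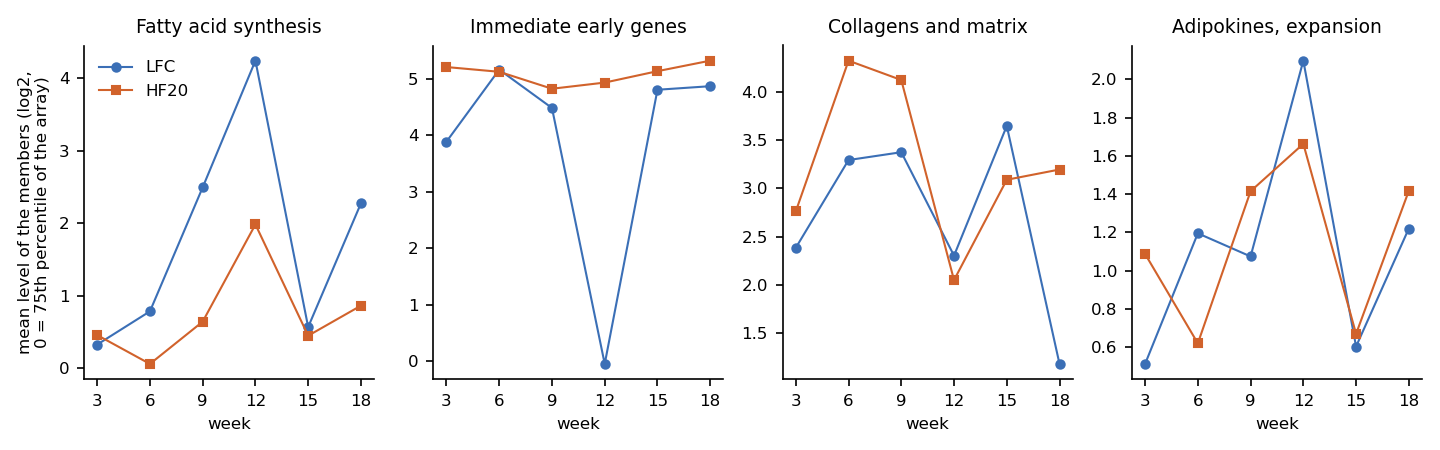
Mean level of the members of 4 gene lists (log2, 0 is the 75th percentile of the array, y axis) on the LFC arrays (circles) and HF20 arrays (squares) against the week (x axis), 1 array a point. A member without a value on an array is left out of its mean, so the HF20 point of Week 15 covers 17 of 20 fatty acid synthesis members. Fatty acid synthesis reached 4.24 in LFC and 1.98 in HF20 at Week 12, and the immediate early genes lay far below the other arrays on LFC at Week 12, at -0.05.

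Me1, the malic enzyme that supplies NADPH for fat synthesis, had levels of 1.5, 4.26 and 6.15 in LFC (lowest, median and highest) and 0.46, 2.42 and 3.12 in HF20. The groups overlapped, but HF20 was lower in each of the 6 weeks, with a difference of -1.91 (SE 0.67), or 3.77-fold, with 1 LFC array saturated. Slc25a1, which carries citrate out of mitochondria, had 0.99 as its LFC median and -0.03 as its HF20 median, and differed by -1.81 (SE 0.71). Acly, which splits that citrate into acetyl-CoA, differed by -1.56 (SE 0.61). Both were lower in HF20 in 5 of 6 weeks, and their largest weekly differences, -4.80 and -3.53, were at Week 12.

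Scd1, the main fat desaturase, was lower in HF20 in 6 of 6 weeks as labelled and in all but Week 12 when exchanged (0.29 there). Its LFC levels were 3.34, 5.22 and 6.44 and its HF20 levels 1.30, 3.68 and 5.51, with a difference of -1.47 (SE 0.69). Fasn, fatty acid synthase itself, differed by -1.17 (SE 0.57) and was lower in 4 of 6 weeks, but its unadjusted p in limma was not under 0.05. Me1, Scd1 and Fasn were each saturated on 1 LFC array, which can only make the LFC level too low. The members at an unadjusted p under 0.05 in limma beside Me1, Slc25a1, Acly and Scd1 were chosen for naming after their values were seen. These were the elongase Elovl6 (-2.24), the carboxylase Acaca (-1.75), and Tkt (-1.09) and Pgd (-1.05) of the pentose phosphate pathway. Elovl6 had no value at Week 15 and was close to LFC at Week 3 (0.06) and Week 6 (-0.16).

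Without the LFC array of Week 12, the fatty acid synthesis list kept a median of -0.92, and 4 members were lower at an unadjusted p under 0.05 in limma (1.25% of all genes). Several named members then lay nearer to 0, with -0.94 for Acly, -1.04 for Slc25a1, -1.46 for Elovl6, -1.0 for Acaca and -0.57 for Pgd. Without Week 12 altogether 6 were (1.4%), and without the HF20 array of Week 15 also 6 (1.31%). Fasn differed by -0.78 without Week 9 and by -1.68 without Week 12.

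To place these genes in the genome, the 250 bases before the transcription start were taken from RefSeq (GRCm38.p6), which had a window for 16 of the 20 fatty acid synthesis members and 12 of the 15 immediate early genes. The array's annotation uses an earlier build, so no probe position is given. Motifs were searched on both strands of each window, and a match is a description of the letters only. The E-box CACGTG was in windows of 3 of the 16 synthesis genes and 3 of the 12 immediate early genes (6.88% of all 26734 genes with a window). CCAAT was in 10 and 5 (37.5%) and the sterol response element TCACNCCAC in 1 and 0 (1.22%). Slc25a1 is shown because it is a named synthesis gene with an E-box (capitals), at chr16:17928220-17928469 on the minus strand. Dusp1 is shown because it is a named immediate early gene with a cyclic AMP response element, TGACGTCA (capitals), at chr17:26508473-26508722 on the minus strand.
Slc25a1: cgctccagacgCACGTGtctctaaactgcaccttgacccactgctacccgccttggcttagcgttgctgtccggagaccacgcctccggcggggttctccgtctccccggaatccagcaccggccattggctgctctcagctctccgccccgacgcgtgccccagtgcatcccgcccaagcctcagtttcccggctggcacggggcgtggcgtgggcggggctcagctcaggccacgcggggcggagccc
Dusp1: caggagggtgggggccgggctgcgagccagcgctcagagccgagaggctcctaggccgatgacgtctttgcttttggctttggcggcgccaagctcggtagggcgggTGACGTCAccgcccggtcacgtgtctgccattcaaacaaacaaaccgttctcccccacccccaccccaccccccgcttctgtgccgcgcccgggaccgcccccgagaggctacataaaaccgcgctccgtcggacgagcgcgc
TGACGTCA was in windows of 2 of the 12 immediate early genes, 1 of the 16 synthesis genes and 1.78% of all genes. The CArG box, on which serum response factor acts, was in 2 of the 12, 0 of the 16 and 1.64% of all genes.

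Of the other lipid and fuel lists, none had a median as far from 0 as fatty acid synthesis. Slc2a5, the fructose transporter, had LFC levels of -4.69, -1.15 and 4.59 and HF20 levels of -6.39, -4.16 and -2.04. It was lower in HF20 in 5 of 6 weeks, with weekly differences of 0.53, -3.07, -6.71, -6.64, -0.50 and -5.53 and a limma difference of -3.65 (SE 1.17). It was well above background on all 6 LFC arrays and 5 of 6 HF20 arrays, so the HF20 level of Week 9 and the difference of -6.71 rest on a dim spot. This difference from LFC stood beside -4.25 for HFC against LFC, and HF20 and HFC differed by 0.60. The 16 genes of glucose uptake and insulin signalling, to which it belongs, had a median of -0.004, so its value was not shared by the list. That median was 0.23 without Week 12 and 0.16 with Week 12 exchanged.

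The cholesterol synthesis and uptake list had a median of -0.45 with 2 of 20 members lower at an unadjusted p under 0.05 in limma (1.17% of all genes), but -0.34 and 1 member with Week 12 exchanged and -0.07 and 0 members without it. Mvd, a decarboxylase of the mevalonate pathway, differed by -0.76 (SE 0.36) and by -3.14 at Week 12 alone, and by -0.29 without that week. Lipolysis and lipid droplet genes (15 members, median -0.27), fatty acid uptake and triglyceride synthesis (14, -0.28), fatty acid oxidation (19, -0.21) and oxidative phosphorylation (24, -0.31) each had 0 members at an unadjusted p under 0.05. Of the oxidative phosphorylation members 22 of 24 had a lower mean in HF20, as did 10408 of all 21087 genes. Leaving out the LFC array of Week 12 alone moved these medians to -0.19 for lipolysis, 0.04 for uptake and triglyceride synthesis, 0.20 for oxidation and -0.04 for oxidative phosphorylation. Under normexp, with 0.22 for all genes, they were -0.57, -0.40, -0.42 and -0.63. With Week 12 exchanged they were -0.26, -0.16, -0.38 and -0.35, and lipolysis and oxidation had 1 member each that was lower at an unadjusted p under 0.05 (1.15% of all genes). The thermogenic list (15 members) had a median of -0.15, and one of 0.25 with normexp, close to the 0.22 of all genes. It was 0.13 without the LFC array of Week 12. With Week 12 exchanged it was -0.24, and 2 members were lower at an unadjusted p under 0.05 in limma (1.15% of all genes), against 0 as labelled. Ucp1, the uncoupling protein of brown and beige fat, had HF20 levels of -2.82, -2.07 and 6.51, the highest at Week 12, and differed by -0.18 (SE 1.23). It differed by -1.39 with Week 12 exchanged, so the difference at Week 12 depends on which array is HF20.

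Genes of adipose expansion had differences near 0. Mest, an imprinted gene tied to fat cell enlargement, had LFC levels of -0.03, 0.58 and 1.48 and HF20 levels of -0.32, 0.56 and 1.33. The ranges overlapped almost whole, the difference was -0.004 (SE 0.54), and HF20 was higher in 3 weeks and lower in 3. The same gene differed by 2.09 (SE 0.54) for HFC against LFC and by -2.10 for HF20 against HFC. These comparisons share the LFC or HF20 arrays, so their values are not independent. With Week 12 exchanged the Mest difference was 0.46, as the array labelled HF5 lay 2.71 above LFC in that week.

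Lep, the satiety hormone leptin, differed from LFC by -0.19 (SE 0.87) in HF20 and by 1.81 in HFC, and by 0.17 in HF20 with Week 12 exchanged. Sfrp5, a secreted Wnt inhibitor, differed by 0.33 in HF20 and by 1.44 in HFC, and was well above background on 4 of 6 arrays of LFC and of HF20. Adipoq, the hormone adiponectin, differed by -0.21 and 0.30. Over the 16 genes of the list the median was 0.07 for HF20 and 0.60 for HFC. The HF20 median was 0.19 with Week 12 exchanged and -0.11 under normexp, where that of all genes was 0.22. At an unadjusted p under 0.05 in limma 1 member was higher in HF20 (1.68% of all genes) and 7 in HFC (2.26% of all genes). HF20 against HFC gave a median of -1.09 with 6 members lower (1.28% of all genes). The exception in HF20 was Peg3, an imprinted zinc finger gene. Its levels were -5.49, -3.78 and -3.06 in LFC and -3.15, -2.71 and -2.49 in HF20, and it was higher in HF20 in 6 of 6 weeks (1.20, SE 0.45), beside 1.48 for HFC.

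**Figure D3:**
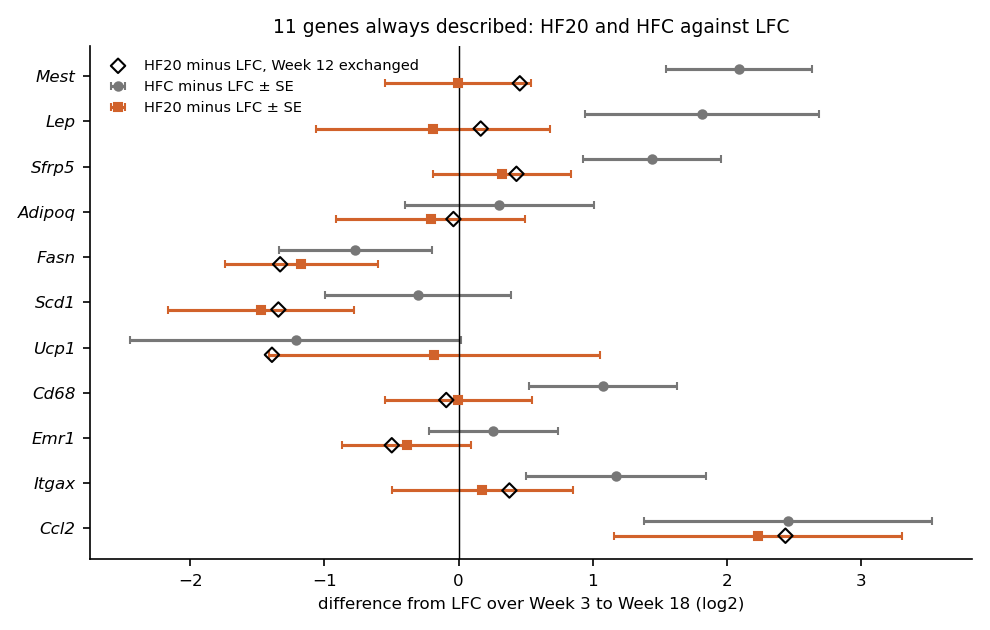
Difference from LFC over Week 3 to Week 18 (log2, x axis) of 11 genes (y axis) for HF20 (squares) and HFC (circles), each with its limma SE as a bar, and for HF20 with Week 12 exchanged (open diamonds). Mest, Lep, Cd68 and Itgax lie within 0.20 of 0 in HF20 as labelled and above 1 in HFC, Fasn and Scd1 lie below -1 in HF20, and Ccl2 lies above 2 in both.

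Macrophage markers had small mean differences from LFC in HF20 over the 6 weeks, of -0.0003 for Cd68 (SE 0.55), -0.39 for Emr1 and 0.18 for Itgax, beside 1.08, 0.26 and 1.17 in HFC. Leaving out 1 week or array moved Emr1 between -0.65 and -0.15. The chemokine Ccl2, which draws monocytes, was higher in HF20 in 5 of 6 weeks, with LFC levels of -0.76, 4.58 and 6.10, HF20 levels of 3.70, 5.90 and 7.38 and a difference of 2.23 (SE 1.07). Its largest differences were 4.46 at Week 12 and 7.21 at Week 18, and it was saturated on 1 LFC and 2 HF20 arrays. Over the 21 genes of macrophage and inflammation tested the median was 0.22, with weekly medians of -0.92, 0.59, 0.07, 0.11, -0.14 and 1.22. At an unadjusted p under 0.05 in limma 1 was higher and 0 lower (1.68% of all genes were higher). For HFC the median was 1.17 with 5 higher (2.26% of all genes). Without the LFC array of Week 12 the HF20 median was 0.02, Ccl2 differed by 1.48 and 0 members were higher at an unadjusted p under 0.05, and 0 were so without Week 12. Without Week 18 Ccl2 differed by 1.24, and without its LFC array by 1.36. Cd163, a haemoglobin receptor of resident macrophages, was lower in HF20 in 5 of 6 weeks (-1.23, SE 0.46), in a list of 12 alternatively activated macrophage genes with a median of -0.45. Without Week 12 that median was -0.03 and Cd163 differed by -0.91, and neither then nor with Week 12 exchanged (-0.86) was any member at an unadjusted p under 0.05. In whole fat, fewer cells of a type and less RNA per cell cannot be told apart.

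All 25 genes for collagens and extracellular matrix had a higher mean in HF20 than in LFC, as did 10679 of all 21087 genes. The list median was 0.58, but under normexp background correction it was 0.14, below the 0.22 of all genes. In limma 0 of the 25 had an unadjusted p under 0.05. Their weekly medians were 0.37, 0.74, 0.72, -0.46, -0.59 and 2.06, so HF20 was the lower diet at Week 12 and Week 15. For HFC the list had a median of 0.73 with 6 members higher at an unadjusted p under 0.05 (2.26% of all genes). The 8 markers of adipose progenitors and fibroblasts had a median of 0.36, or 0.02 under normexp, and weekly medians of -0.51, 1.18, 1.14, -0.99, -0.56 and 1.87, and their part in the matrix values was not tested.

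Immediate early genes, which switch on within minutes of a stimulus, had a median difference of 1.12, or 0.71 under normexp background correction. All 15 tested had a higher mean in HF20, as did 10679 of all 21087 genes. At an unadjusted p under 0.05 limma gave 5 higher and 0 lower (1.68% of all genes were higher). The list mean was 3.88, 5.16, 4.48, -0.05, 4.80 and 4.86 on the LFC arrays from Week 3 to Week 18 and lay between 4.82 and 5.32 on the HF20 arrays. The LFC array of Week 12 thus stood alone. Without Week 12 the median was 0.55 with 0 members at an unadjusted p under 0.05 (1.8% of all genes were higher), and without the LFC array of Week 12 alone it was 0.45 with 1 member higher (1.67% of all genes). For HFC, which was set against the same LFC arrays, the median was 1.16.

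Jun, a subunit of the AP-1 factor, had levels of 0.32, 3.31 and 3.63 in LFC and 3.58, 4.07 and 4.66 in HF20, and differed by 1.25 (SE 0.44). The groups met only between the highest LFC and the lowest HF20 array, and Jun was higher in 6 of 6 weeks. Klf4, a zinc finger factor, was also higher in 6 of 6 weeks (1.12, SE 0.41), though saturated on 1 LFC and 2 HF20 arrays, and Dusp1, a phosphatase that switches off MAP kinases, in 5 of 6 (1.17, SE 0.42). Without Week 12 the differences of Jun, Klf4 and Dusp1 were 0.63, 0.70 and 0.70. Atf3 (2.08) and Fosb (2.16) completed the count, were chosen for naming after their values were seen, and differed by 0.95 and 1.40 without Week 12.

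The heat shock list (8 tested) had a median of 0.59 and 2 members higher at an unadjusted p under 0.05 in limma (1.68% of all genes), but 0.26 and 0 without Week 12, 0.29 and 0 with it exchanged, and a median of 0.16 under normexp, below that of all genes. Hspa1a, an inducible chaperone, differed by 1.81 (SE 0.87) and by 9.16 at Week 12, and without Week 12 by 0.34. Of the circadian clock genes 12 of 13 had a higher mean in HF20, as did 10679 of all 21087 genes. The clock median was 0.59, or 0.33 under normexp background correction. At an unadjusted p under 0.05 in limma 1 clock gene was higher (1.68% of all genes), Per3 (0.95, SE 0.36). This period gene was well above background on 1 LFC and 2 HF20 arrays. Without Week 12 the clock median was 0.45 and 0 were higher at an unadjusted p under 0.05 (1.8% of all genes), with it exchanged 0.58 and 2 were (1.44%), and without its LFC array 0.50 and 1 was (1.67%). For HFC the clock median was 0.78 with 7 higher (2.26% of all genes). The glucocorticoid response list had a median of 0.51, which was 0.08 without Week 12.

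Genes with an unadjusted p under 0.05 in limma and the same sign in each week numbered 118 higher and 71 lower, and 66 and 25 met the naming rule. Zdhhc14, a palmitoyltransferase, had weekly differences of 0.76, 1.07, 1.01, 0.69, 0.89 and 0.78 as labelled. Its levels were -2.50, -2.17 and -1.08 in LFC and -1.78, -1.39 and -0.01 in HF20, so the groups overlapped while every week went the same way. The difference was 0.87 (SE 0.23), or 1.82-fold, and 0.78 with Week 12 exchanged (0.16 in that week).

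Among the other genes named as higher, 11 with Zdhhc14, Grb10, an imprinted adaptor that restrains the insulin receptor, differed by 0.77 (SE 0.26), and Gab1, an adaptor of growth factor receptors, by 0.75 (SE 0.24). Rab27b, a GTPase of secretory vesicles, differed by 1.78 (SE 0.54) and was well above background on 2 LFC and 5 HF20 arrays. Dennd2c (1.13), an activator of Rab proteins, Nhedc2 (1.34), a sodium and proton exchanger now named Slc9b2, and Prickle2 (1.02), of planar cell polarity, followed. The others were Ccdc88a (0.94), an actin-binding protein, Lrrc3b (1.15), Jun, and Ccdc14 (1.33), which was well above background on 3 LFC and 4 HF20 arrays. Ccdc14 differed by 0.88 without the HF20 array of Week 12, and Nhedc2 by 0.83 without Week 6. For HFC against LFC the differences of these 11 ran from 0.07 (Ccdc14) to 1.26 (Nhedc2). In each of the 11 the HF20 and LFC ranges overlapped.

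**Figure D4:**
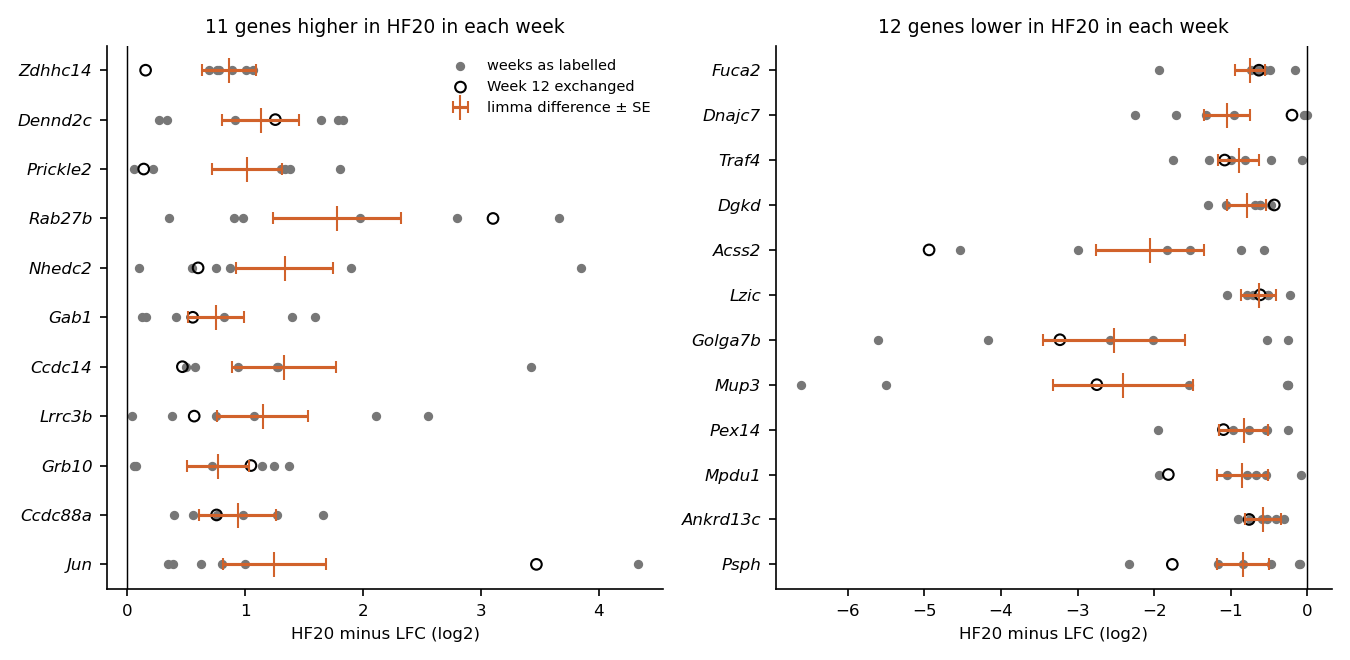
Difference HF20 minus LFC (log2, x axis) of the 11 genes named as higher (left) and the 12 named as lower (right), in each week (grey points) and in Week 12 with the HF5 and HF20 arrays exchanged (open circles), with the limma difference and its SE (bars). Zdhhc14 keeps its weeks between 0.69 and 1.07 as labelled, while Acss2, Golga7b and Mup3 reach -4.54, -5.61 and -6.62, the last against an HF20 spot not well above background.

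Fuca2, an alpha-L-fucosidase, led the genes lower in HF20, with levels of -0.90, -0.12 and 0.23 in LFC and -1.95, -0.99 and -0.32 in HF20. Its difference was -0.75 (SE 0.20), or 1.68-fold, and it was -0.03 for HFC against LFC. Dgkd, a diacylglycerol kinase, had its weekly differences between -1.29 and -0.48 (-0.79, SE 0.25), beside -0.20 for HFC. Acss2, which makes acetyl-CoA from acetate for lipid synthesis and was not in the list above, differed by -2.06 (SE 0.70), or -1.32 without the LFC array of Week 12, and was lower in 6 of 6 weeks. The co-chaperone Dnajc7 differed by -1.05 and the adaptor Traf4 by -0.90. For HFC against LFC the differences of the 12 genes named as lower ran from -1.50 (Golga7b) to -0.03 (Fuca2), with -1.21 for Mup3, -0.93 for Acss2, -0.86 for Dnajc7 and -0.64 for Traf4.

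Among the rest, Psph (-0.84) makes serine, Mpdu1 (-0.85) acts in the use of dolichol sugars for glycosylation, and Pex14 (-0.83) belongs to the import machinery of peroxisomes. Without the LFC array of Week 12 Psph differed by -0.50 and Mpdu1 by -0.53. Golga7b (-2.52, SE 0.93), Lzic (-0.64) and Ankrd13c (-0.58) completed the named genes with Mup3. Mup3 (-2.40, SE 0.91) belongs to the major urinary proteins, a family of near-identical genes that a probe may not tell apart, and was well above background on 5 LFC and 2 HF20 arrays. It differed by -1.56 without Week 12. Of the 56 genes chosen 20 had more than 1 probe tested, and for Ankrd13c, Ucp1 and Uty a further probe had the opposite sign.

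Slc38a2, a transporter of neutral amino acids, had the smallest p of the named genes and no value on the LFC array of Week 15. It was higher in HF20 in each of the 5 weeks measured, with LFC levels of 1.30, 1.75 and 4.72, HF20 levels of 3.07, 3.34 and 4.89 and a limma difference of 1.30 (SE 0.33), or 2.47-fold, beside 1.04 for HFC. The 20 genes of amino acid transport and the integrated stress response had a median of 0.03, with no other member at an unadjusted p under 0.05. Cebpd, an early factor of fat cell formation, differed by 0.80 (SE 0.35) in a list of 13 adipogenic transcription factors with a median of 0.28. Without Week 12 these values were 0.47 and 0.03, and with it exchanged 0.77 and 0.29. At an unadjusted p under 0.05 in limma 1 of the 13 was higher as labelled (1.68% of all genes), 2 without Week 12 (1.8%) and 3 with it exchanged (1.44%). Hyou1, a chaperone of the endoplasmic reticulum, was lower in 6 of 6 weeks as labelled (-0.50, SE 0.23) in a list of 14 chaperones with a median of -0.001, and was 0.45 higher at Week 12 with the arrays exchanged.

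The remaining lists had 0 or 1 member at an unadjusted p under 0.05 in limma, where 1.68% of all genes were higher and 1.17% lower. Their medians were 0.24 for antioxidant genes (12 tested), 0.45 for xenobiotic metabolism (11, with 0.19 without Week 12, 0.24 with it exchanged and 0.13 under quantile normalization), -0.01 for interferon-stimulated genes (14), -0.36 for MHC class II (9, with -0.60 for Week 12 exchanged, -0.63 without its LFC array and -0.65 under quantile normalization), -0.10 for the hypoxia response (12), -0.003 for acute phase genes (9) and -0.18 for the cell cycle (15), which turned to 0.15 under normexp background correction. Under normexp the antioxidant median was 0.02, and it and the cell cycle median of 0.15 lay below the 0.22 of all genes. The acute phase median was -0.42 under quantile normalization. The interferon median was 0.20 without the HF20 array of Week 15, and 0.27 with Week 12 also exchanged. MHC class II genes, which present antigen to T cells, were lower in the mean for all 9 members, as were 10408 of all 21087 genes. The lymphocyte markers had a weekly median of -3.06 at Week 3, the week of the lowest MHC class II median, and their part in it was not tested. The MHC class II weekly medians were lowest at Week 3 and Week 12, at -2.61 and -1.43, and those of the other weeks ran from -0.80 to 0.33.

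Markers of fat were high on each of the 12 arrays, and markers of other tissues varied between arrays of both diets. The mean of the 13 skeletal muscle markers ran from -3.04 to 0.73 on LFC and from -2.56 to 1.85 on HF20 arrays, with a median difference of 0.54 that was 1.53 with Week 12 exchanged. Lymphocyte markers (9) were highest on the LFC array of Week 3 (1.30), and all other arrays of both diets lay at or below -0.74. Mammary and simple epithelium (7 tested of 9) reached 0.01 on the LFC array of Week 6 and 0.08 on the HF20 array of Week 3. Red blood cell genes (3 tested of 4) had a median difference of -1.0, with the HF20 mean lower in all 3. None of these 3 had an unadjusted p under 0.05 in limma, but without Week 12, where HF20 was 2.54 higher, the median was -1.72 and all 3 did (1.4% of all genes were lower). All 3 also did with Week 12 exchanged (median -1.36, 1.15% of all genes) and without the LFC array of Week 12 (-1.26, 1.25%). Endothelial markers (10) had a median of 0.43 with 1 higher at an unadjusted p under 0.05 (1.68% of all genes), and -0.06 with 0 when Week 12 was left out (1.8%). Skin and liver markers were mostly too dim, with 2 of 6 tested in each. Of 4 Y-linked genes Uty had an unadjusted p under 0.05, with a difference of -1.21 that was 0.95 under normexp background correction, and was well above background on 3 LFC arrays and 1 HF20 array, that of Week 15, where its spot was an outlier and gave no value. The part of these markers in the differences between the diets was not tested.

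**Figure D5:**
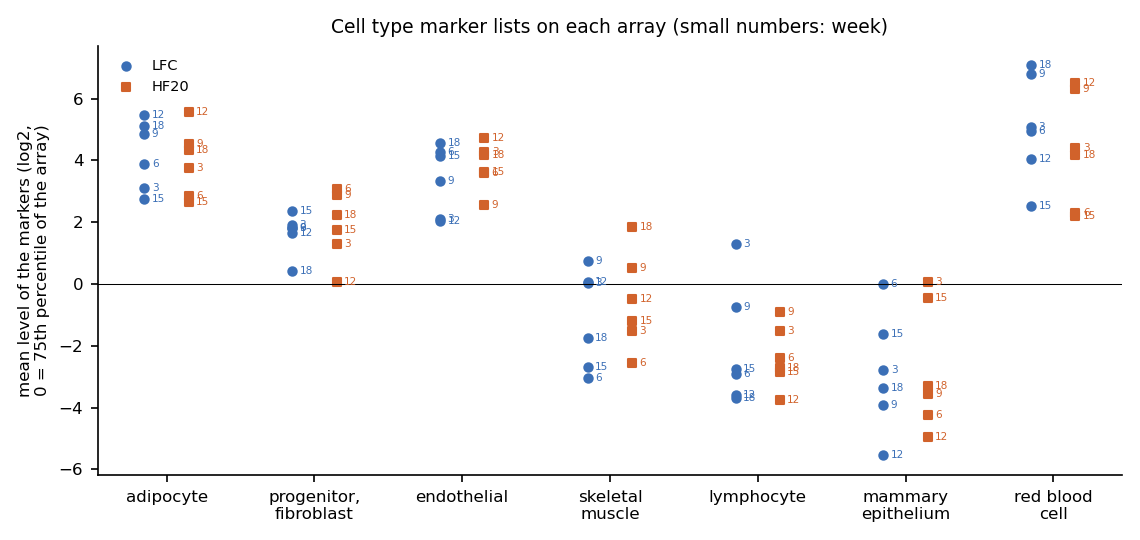
Mean level (log2, 0 is the 75th percentile of the array, y axis) of 7 lists of cell type markers (x axis) on the 6 LFC arrays (circles) and the 6 HF20 arrays (squares), with the week beside each point. Adipocyte markers lie above 2 on every array, and muscle, lymphocyte and mammary markers spread over several log2 units in both diets.

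The question of whether the difference from LFC changed with time was asked with a slope over the 6 weeks. In limma 0 of 21087 genes passed after adjustment, and 904 had an unadjusted p under 0.05. For 467 (2.21%) the signed difference rose with the week and for 437 (2.07%) it fell. A negative difference that rises moves toward LFC, so these counts do not tell movement away from LFC from movement toward it. None of the 20 fatty acid synthesis members was among the 904, and 2 of the 25 matrix genes were, both rising. HF20 against HFC, the test of KAL-1 on the same food, gave 0 genes after adjustment in limma and 905 at an unadjusted p under 0.05, of which 636 (3.02%) were higher in HF20 and 269 (1.28%) lower. Higher genes made up 70.3% of these, against 82.9% under normexp and 24.9% under quantile normalization, so the split depends on the scaling. For HFC against LFC the numbers were 0 and 1066. With the Week 12 arrays exchanged, HF20 against LFC gave 304 higher (1.44%) and 243 lower (1.15%) at an unadjusted p under 0.05, and 0 after adjustment.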

How the data were processed

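RNA of subcutaneous fat was labelled with Cy3 and hybridised to 1-colour Agilent arrays. The deposited array files hold spot intensity values from Agilent Feature Extraction, which had subtracted the background (10.5.1.1 per the file headers, 9.1 in the submitters' processing notes), and per the file headers flags of other kinds (well above background, saturated, outlier). They had not been normalized across arrays. The deposited series table holds the authors' log2 ratios of each array to that week's LFC array, which served as an alternative.

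The log2 processed intensity minus the 75th percentile of its array was used. Spots flagged as outliers were left out, spots of a probe averaged, and the brightest probe of each gene kept. A gene was tested when well above background on at least 6 of 30 arrays (21087 genes). All 5 diets of Week 3 to Week 18 were fitted with limma 3.58.1 (R 4.3.3), with the week as a block and two-sided Benjamini-Hochberg adjusted p under 0.05. HF20 and LFC are paired by the week in their labels. Slopes on the week number, 1 per diet, were fitted beside the same block. In simulated data 200 of 19431 genes were changed. The share of these found for HF20 against LFC was 19.0% for a log2 change of 1, 67.5% for 2, 85.5% for 3 and 94.5% for 4. The simulated noise was independent between genes and equal on all arrays, while the weights estimated for the real arrays ran from 0.089 to 6.30. The shares therefore hold for that setting only.

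Named genes were up to 12 higher and 12 lower by smallest p at an unadjusted p under 0.05, with the same sign in all 6 weeks, also with Week 12 exchanged, the same sign under normexp and quantile normalization, well above background on at least 4 arrays of the higher group, unsaturated and with an informative symbol; 11 genes always; and up to 3 per list at an unadjusted p under 0.05 with the same sign in at least 5 weeks. One gene chosen by this rule is not reported here. The members, the 26 function and 10 marker lists and this rule were chosen with earlier results of these data known. Alternatives are given at the end. The number of arrays limits the precision. Arrays before Week 3 are not used here.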

Additional observations from a re-analysis of the deposited data

Results flagged for a closer look

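Values of a diet were set against each other over the 6 weeks, and 25 of 192 sets held an array farther from the rest than Dixon's 95% critical value, which chance alone passes in about 1 in 20 sets. The LFC array of Week 12 held more of these values than any other array. Its mean level was -0.051 for the immediate early genes, 1.16 for cholesterol synthesis and uptake and 3.53 for fatty acid oxidation. Among genes its level was 0.32 for Jun, 3.15 for Mpdu1, -0.86 for Hspa1a, 5.32 for Pgd, -1.56 for Atf3 and -4.65 for Fosb. The array labelled HF20 of Week 12 stood out with 6.51 for Ucp1, -0.27 for Acaca and 1.33 for Fosb, and with list means of 0.59 for thermogenic genes, 2.97 for fatty acid oxidation and 4.79 for oxidative phosphorylation.

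The HF20 array of Week 15 stood out by 87.8% of spots well above background and by 4936 outlier spots. In Week 6 Slc38a2 was at 4.72 in LFC and 4.89 in HF20, Psph was at -0.70 in HF20, adipogenic transcription factors averaged 0.85 in HF20 and Y-linked genes averaged -2.36 in LFC. In Week 3 adipogenic transcription factors averaged 0.27 in LFC and the circadian clock -0.81 in HF20. In Week 18 adipose progenitor and fibroblast markers averaged 0.41 in LFC.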

How the results depend on the processing

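Under all 36 alternatives limma gave 0 genes after adjustment for HF20 against LFC and for its change per week. The 601 genes at an unadjusted p under 0.05 stayed within 1.5 times in 30 alternatives, and leaving out 1 week or 1 array gave 456 to 883. Outside that range were normexp background correction (2280), only genes well above background on all 30 arrays (394), every probe on its own (948), array quality weights (1546), the fit with no replicate block for the week, so with HF20 and LFC not paired (264), and normexp with its noise estimated without spots over 50 below local background (349). The last, like the alternatives with the Week 12 arrays exchanged together with the HF20 array of Week 15 left out (508) or its outlier spots kept (538), was chosen after seeing the data. The share of these genes that was higher in HF20 was 59.1%, against 76.4% under normexp, where the median of all genes moved to 0.22, and 37.4% under quantile normalization. For HF20 against HFC the count of 905 was 10181 under normexp, 3058 under the adapted normexp, 2725 with no filter, 456 with the filter on all 30 arrays, 409 with no replicate block, 1489 with the scan day as block, 2163 with array quality weights, 553 with Week 12 exchanged and the HF20 array of Week 15 left out, and 479 to 2383 with 1 week or array left out (479, 574, 1680 and 2383 on omitting Week 3, 9, 12 and 18, and 520 and 1567 on omitting the HF20 arrays of Week 15 and 18). The causes were not tested.

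Of the 56 chosen genes, 48 kept the sign of their difference under every alternative that gave a value, but 24 of the 56 had been chosen for 1 sign in every week, also with Week 12 exchanged, and under normexp and quantile normalization. Mest turned positive with Week 12 exchanged (0.46), with outlier spots kept as well (0.46), without the HF20 array of Week 15 as well (0.60), with the scan day as block (0.20) and in the deposited ratios (0.46). Lep did so in the same settings (0.17, 0.17, 0.20, 0.16 and 0.17) and with array weights (0.26). Of these settings only the scan day and the array weights do not hold the Week 12 exchange. The deposited Week 12 ratios named HF20 follow the array labelled HF5. Cd68 turned with the slide as a random block (0.27), array weights (0.13) and Week 12 exchanged without the HF20 array of Week 15 (0.19), Adipoq with the scan day (0.16), Sfrp5 with the slide (-0.00039), and Uty under normexp (0.95) and adapted normexp (0.038). Leaving out 1 week or array gave -0.26 to 0.25 for Mest, -0.52 to 0.18 for Lep, -0.043 to 0.74 for Sfrp5, -0.48 to 0.26 for Adipoq, -1.36 to 0.76 for Ucp1, -0.44 to 0.41 for Cd68 and -0.10 to 0.74 for Itgax. In the simulated data, with equal and independent noise on 6 arrays a diet, most changes of 2-fold were not recovered.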
